A study of Homo sapiens with 18 samples.

Results

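The genes described here carry glucose breakdown and the TCA cycle, together with the hypoxia factor HIF1A and genes it is known to act on, in SK-N-MC cells exposed to rotenone, an inhibitor of complex I of the respiratory chain. They were chosen by name, 48 genes in all, and not by how they behaved. Of the 48, 46 had a usable measurement among the 9162 genes tested, and SLC16A1, a lactate and pyruvate transporter, and FH, the fumarase of the TCA cycle, are not analysed here. Each gene was read from a probe set, a group of short probes on the array for a transcript, that the annotation assigns to no other gene. Of the probe sets used, 20 had names ending in s_at and 7 in x_at, those of SLC2A3 and SUCLG2 among the 7. Binding of other transcripts to the probes was not tested. Probe sets had to reach a signal of 50 on 3 or more arrays, and the brightest of a gene's probe sets was used.

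The cells were grown with 0.05% ethanol as vehicle (1w0 nM, 4w0 nM), with 5 nM rotenone (1w5 nM, 4w5 nM) or with 50 nM rotenone (1w50 nM, 4w50 nM), for 1 week or for 4 weeks. Each of the 6 groups had 3 Affymetrix HG-U133A arrays, 18 in all, and by the design each array held the RNA of dishes pooled within an experiment. The medium of every group lacked sodium pyruvate, and the labels describe 5 nM as non-lethal and 50 nM as causing some cell death. The line is a single established human tumour line, so the spread between arrays is between cultures and not between people.

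Cells break down glucose in glycolysis to pyruvate, which either leaves as lactate or enters mitochondria, where pyruvate dehydrogenase turns it into acetyl-CoA for the TCA cycle. Complex I takes the NADH of that cycle, and when it is blocked cells lean on glycolysis for ATP. HIF1A, the oxygen-regulated subunit of hypoxia-inducible factor 1, is controlled mostly through breakdown of its protein, and the factor switches on glucose transporters, glycolytic enzymes, PDK1 and VEGFA by binding short promoter elements with the core ACGTG or GCGTG.

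The median signal of the arrays lay between 87.0 and 102. The labels call the cells neuroepithelioma and the study calls them neuroblastoma. Of the markers of Ewing family tumours and neuroepithelioma, CD99 had a signal of 2067 to 3471 and NKX2-2 of 816 to 2005, whereas of the noradrenergic neuroblastoma markers TH, at 6.60 to 19.9, HAND2 and PHOX2A did not pass the filter, and GATA3 (110 to 206), ISL1 (43.7 to 204), DBH (25.6 to 67.1) and CHGA (20.9 to 66.1) did. The transcripts spiked in for hybridization averaged a log2 signal of 8.67 to 9.04 on the 6 arrays of 4-week rotenone and of 9.67 to 10.06 on the other 12. This split coincides with 4-week rotenone. Its part in the 4-week differences from vehicle was not tested and cannot be told apart from that of rotenone in this design. Of 12 fibroblast markers 11 passed the filter, and their summed signal was 4160 to 4643 on 1w0 nM, 6789 to 7125 on 1w5 nM, 6456 to 6925 on 1w50 nM, 6640 to 6818 on 4w0 nM, 4621 to 5330 on 4w5 nM and 4521 to 4984 on 4w50 nM arrays. COL1A2 made the largest part of the sum, and the markers did not all move with it. With 5 nM at 4 weeks 5 of the 11 had a higher mean than with vehicle, among them COL3A1 (1173, against 830), DCN (1024, against 746) and LUM (366, against 103), and 6 a lower one, and with 50 nM 2 were higher and 9 lower. At 1 week 11 were higher with 5 nM, and 9 were higher and 2 lower with 50 nM. The part of the fibroblast genes in the results was not tested, and in bulk RNA of this kind fewer cells of a type and less RNA per cell cannot be told apart.

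The 1-week vehicle arrays stood apart. The lowest correlation across genes between arrays of a group was 0.914 in 1w0 nM and between 0.967 and 0.988 in the other groups. The difference between 1w0 nM replicate 3 and replicate 2 followed the difference between 4w50 nM and 4w5 nM, with r = 0.75 across the 9162 genes and 0.80 across the 46 genes described here. These contrasts share no array, and genes are not independent replicates. For replicate 3 minus replicate 1 the same r was 0.62 across all genes but 0.20 across the 46. For replicate 2 minus replicate 1 it was -0.46 and -0.74. For the 9 pairs of arrays within 1w5 nM, 1w50 nM and 4w0 nM the same r lay between -0.22 and 0.17 across all genes and between -0.16 and 0.38 across the 46. ETFA, the alpha subunit of the electron transfer flavoprotein, shows the difference between replicates 2 and 3 most plainly, with signals of 538, 189 and 961 on 1w0 nM replicates 1, 2 and 3. On the 4-week arrays it had 269, 178 and 112 with 5 nM and 962, 1025 and 922 with 50 nM. Thus 1w0 nM replicate 2 lay within the 4w5 nM values and replicate 3 at the 4w50 nM values, although both were labelled as vehicle. Of the 11 genes of the set that were higher with 50 nM than with 5 nM at 4 weeks, 10 were also higher on 1w0 nM replicate 3 than on replicate 2. The like count over all genes is not given here. The cause of this likeness was not tested. Results of 1 week are given below against these arrays. For part of them, results with the 4w0 nM arrays as vehicle or with single arrays left out are given too. Where none is given, the result rests on the 1w0 nM arrays.

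**Figure D1:**
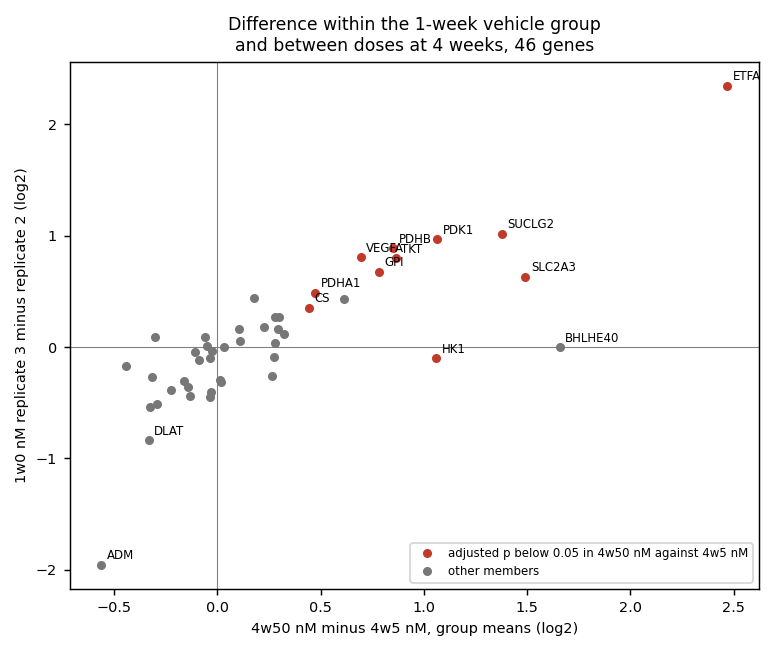
Log2 difference between replicates 3 and 2 of 1w0 nM (vertical axis) against the log2 difference between the means of 4w50 nM and 4w5 nM (horizontal axis), a point for each of 46 genes, with those past the threshold between the doses in red. The points run from ADM at the lower left to ETFA at the upper right, with r = 0.80 across the 46 genes.

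Differences were tested with limma over the 18 arrays of the 6 groups together. A gene is said to rise or fall only where its p stayed below 0.05 after Benjamini-Hochberg adjustment across the 9162 genes. Other probe sets of a gene were read from a separate limma fit, with the adjustment across the 13705 single-gene probe sets that passed the filter. Log2 was taken of the signal, with 16 as the lowest value. After 4 weeks with 50 nM, 10 of the 46 genes rose, where 23.5% of all genes tested rose, and 9 fell, where 17.7% of all fell. After 4 weeks with 5 nM, 5 rose, against 18.6% of all genes, and 12 fell, against 14.3% of all. After 1 week with 50 nM, 2 rose, against 8.75% of all, and 10 fell, against 11.3% of all. After 1 week with 5 nM, 3 rose, against 4.98% of all, and 1 fell, against 1.62% of all. As shares of the 46 these are 21.7% and 19.6% for 50 nM and 10.9% and 26.1% for 5 nM at 4 weeks, and 4.35% and 21.7% for 50 nM at 1 week. The median log2 change of the 46 at 4 weeks was -0.02 with 50 nM, where that of all genes was 0.02, and -0.19 with 5 nM, where that of all genes was 0.03. The share of the set that fell was above that of all genes for 50 nM at 1 week and 5 nM at 4 weeks, and the share that rose with 5 nM at 4 weeks was below it. These shares are descriptions, and no test was made of the set. Across the 4 comparisons with vehicle 30 of the 46 were called at least once and 16 never. The count for 5 nM at 1 week was 0 and that for 50 nM at 1 week was 4 (PDK1, SLC2A3, DLAT and IDH3A, which all fell) when the 4w0 nM arrays took the place of the 1-week vehicle, a comparison chosen after seeing the data. Over all genes that comparison called 0 for 5 nM, where 256 had an unadjusted p below 0.05 by limma, and for 50 nM 0.12% higher and 2.61% lower. With each of the 1w0 nM arrays left out in turn they were 2 to 6 and 10 to 12.

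**Figure D2:**
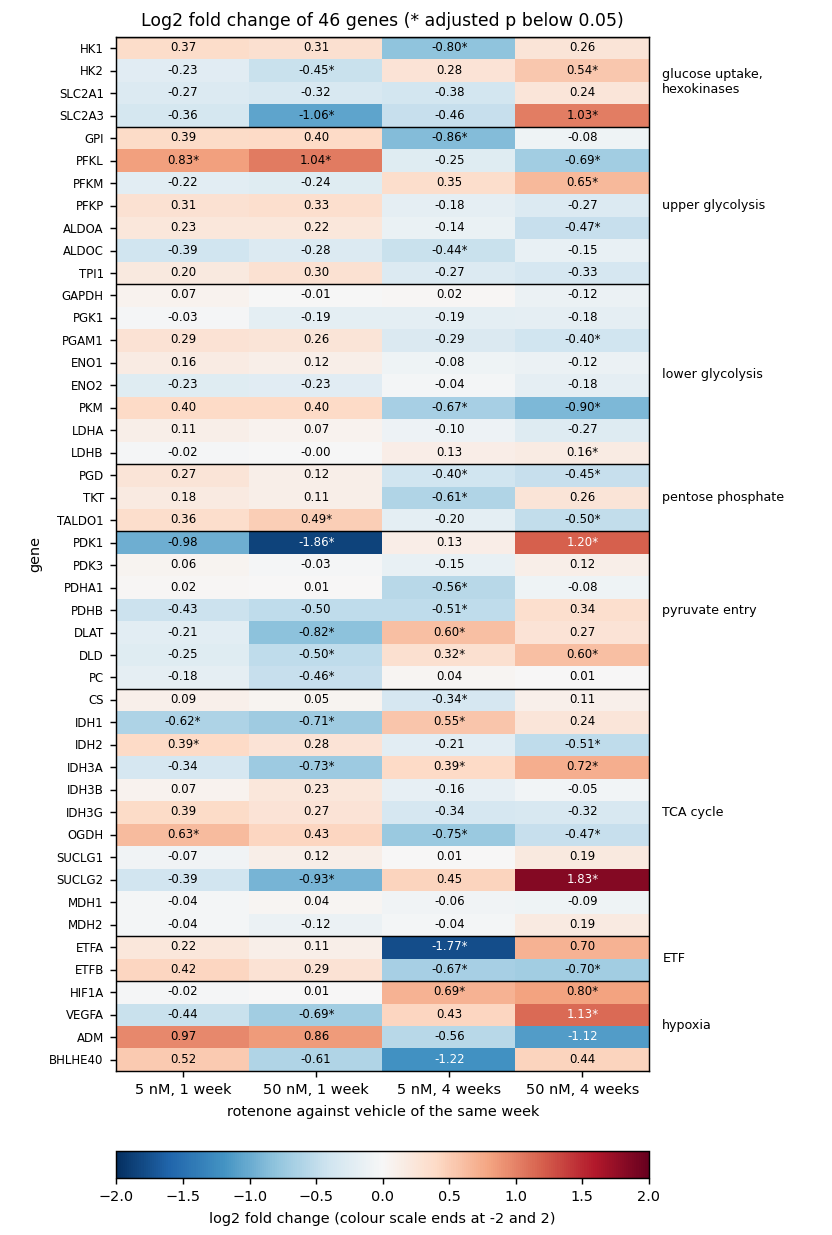
Log2 fold change of each of 46 genes (rows, ordered by role) for rotenone against the vehicle of the same week, by dose and week (columns). An asterisk marks an adjusted p below 0.05, with 4 genes marked for 5 nM and 12 for 50 nM at 1 week, and 17 for 5 nM and 19 for 50 nM at 4 weeks.

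HIF1A rose with both doses after 4 weeks and with neither after 1 week. Its signal was 1074, 1086 and 1164 in 4w0 nM, 1864, 1720 and 1791 in 4w5 nM and 1967, 1913 and 1915 in 4w50 nM cells. On the 9 arrays of 1 week it lay between 1008 and 1220. Each of the 6 arrays of 4-week rotenone was thus above each of the other 12. These are the same 6 arrays on which the spiked-in transcripts were lower. The rise was 0.69 ± 0.09 on the log2 scale with 5 nM (SE, adjusted p = 5.01e-05) and 0.80 ± 0.09 with 50 nM (adjusted p = 8.75e-06), and both calls held without any single array. At 1 week the log2 differences were -0.02 with 5 nM and 0.01 with 50 nM.

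VEGFA, the vascular growth factor that HIF-1 induces, rose with 50 nM at 4 weeks. Its signal was 2208, 1840 and 1634 in 4w50 nM cells, against 921, 870 and 791 in 4w0 nM cells, a 2.19-fold rise (log2 1.13 ± 0.20, SE, adjusted p = 0.000315). In 4w5 nM cells it was 1000, 961 and 1627, and the log2 difference of 0.43 did not pass (adjusted p = 0.109), while the 3 other VEGFA probe sets differed by -0.14, -0.13 and -0.31, also without passing. With 50 nM these 3 rose too, by 0.71 to 0.87. At 1 week with 50 nM it was 668, 693 and 769, against 987, 933 and 1632 with vehicle, and fell by 0.69 on the log2 scale (SE 0.20, adjusted p = 0.0235). That fall was lost without 1w0 nM replicate 3, the array with 1632, or without either of 1w50 nM replicates 1 and 2 (adjusted p between 0.0670 and 0.0870). Against the 4w0 nM arrays, chosen after seeing the data, the log2 difference of VEGFA was -0.28 and did not pass. Of its 3 other probe sets, 2 fell with 50 nM at 1 week, by 1.14 (adjusted p = 0.00111) and 1.32 (adjusted p = 0.00274), and also with 5 nM, by 0.82 and 1.03, while the probe set used differed by -0.44 with 5 nM and did not pass.

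ADM, the vasodilator peptide adrenomedullin, and BHLHE40, a transcription repressor, are textbook targets of HIF-1 too, and neither was called against vehicle. ADM had signals of 33.8, 25.0 and 149 in 4w50 nM cells, against 103, 113 and 111 in 4w0 nM cells. BHLHE40 had 51.0, 45.5 and 256 in 4w50 nM cells, against 51.3, 66.8 and 69.6 in 4w0 nM cells, and it was the only gene of the set with values below 16. Replicate 3 of 4w50 nM was the highest array for both genes, above every vehicle array, whereas replicates 1 and 2 were at or below the vehicle for ADM.

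The promoters of 3 genes are printed because their products act at the fate of pyruvate, to lactate or to acetyl-CoA, and within the TCA cycle, and they differed in response. PDK1, pyruvate dehydrogenase kinase 1, blocks pyruvate dehydrogenase, LDHA makes lactate from pyruvate, and SUCLG2 is the GTP-forming beta subunit of succinyl-CoA ligase. Each window holds 250 bases before and 50 after an annotated transcription start, in RefSeq's GRCh38.p14, written 5′ to 3′ on the strand of the gene. Capitals mark the HIF core element, ACGTG or GCGTG, searched on both strands, so that CACGT and CACGC mark it on the opposite strand and the palindrome CACGTG holds overlapping matches. PDK1 lies on the plus strand at chr2:172555840-172556139, LDHA on the plus strand at chr11:18394313-18394612 and SUCLG2 on the minus strand at chr3:67654563-67654862.
PDK1: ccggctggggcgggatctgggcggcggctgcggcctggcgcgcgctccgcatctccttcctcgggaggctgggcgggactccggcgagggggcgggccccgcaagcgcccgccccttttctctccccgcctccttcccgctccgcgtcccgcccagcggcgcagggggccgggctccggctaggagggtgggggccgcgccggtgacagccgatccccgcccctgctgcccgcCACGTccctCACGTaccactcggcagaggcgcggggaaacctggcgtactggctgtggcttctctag
LDHA: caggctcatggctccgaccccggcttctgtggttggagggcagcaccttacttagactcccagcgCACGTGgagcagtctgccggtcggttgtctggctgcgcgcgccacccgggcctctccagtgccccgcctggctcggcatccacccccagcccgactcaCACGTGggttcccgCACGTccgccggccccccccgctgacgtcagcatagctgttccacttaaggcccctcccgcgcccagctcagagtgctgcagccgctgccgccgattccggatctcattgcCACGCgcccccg
SUCLG2: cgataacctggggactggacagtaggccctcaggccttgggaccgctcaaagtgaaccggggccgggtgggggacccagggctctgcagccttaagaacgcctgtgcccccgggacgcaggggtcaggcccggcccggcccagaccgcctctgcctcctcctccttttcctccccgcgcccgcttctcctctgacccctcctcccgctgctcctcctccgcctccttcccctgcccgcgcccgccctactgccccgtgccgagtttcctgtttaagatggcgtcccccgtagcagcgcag
The PDK1 window holds 2 matches, the LDHA window 6 and the SUCLG2 window 0. A further annotated start of PDK1 had 0 matches and a further one of LDHA had 1. PDK1 and SUCLG2 rose with 50 nM at 4 weeks and LDHA, with the most matches of the 3 windows, did not pass the test at any dose or week. At least 1 match occurred in 60.6% of 71 windows of the measured genes, in 59.8% of 11133 windows of all genes tested and in 48.4% of all 35116 windows in the table. For ACGTG alone the shares were 35.2%, 25.1% and 21.4%. VEGFA, SLC2A3 and OGDH had no window in the table used. A match describes the letters of the window and not a binding site.

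PDK1 moved in opposite directions at 1 and 4 weeks of 50 nM. Its signal was 171, 135 and 211 in 4w50 nM cells, against 89.7, 82.8 and 54.8 in 4w0 nM cells, a 2.29-fold rise (log2 1.20 ± 0.34, SE, adjusted p = 0.00980). The call was lost without 4w0 nM replicate 3 (adjusted p = 0.0560). In 1w50 nM cells it was 24.6, 24.7 and 35.6, against 146, 60.2 and 118 in 1w0 nM cells, and it fell 3.63-fold (log2 -1.86 ± 0.34, adjusted p = 0.00172). The fall held without any single array, and with the 4w0 nM arrays as vehicle it was -1.41 on the log2 scale (adjusted p = 0.0398). With 5 nM the log2 differences were -0.98 at 1 week and 0.13 at 4 weeks and neither passed. PDK3, an isoform of the kinase, was never called, at 131 to 184 over all arrays.

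**Figure D3:**
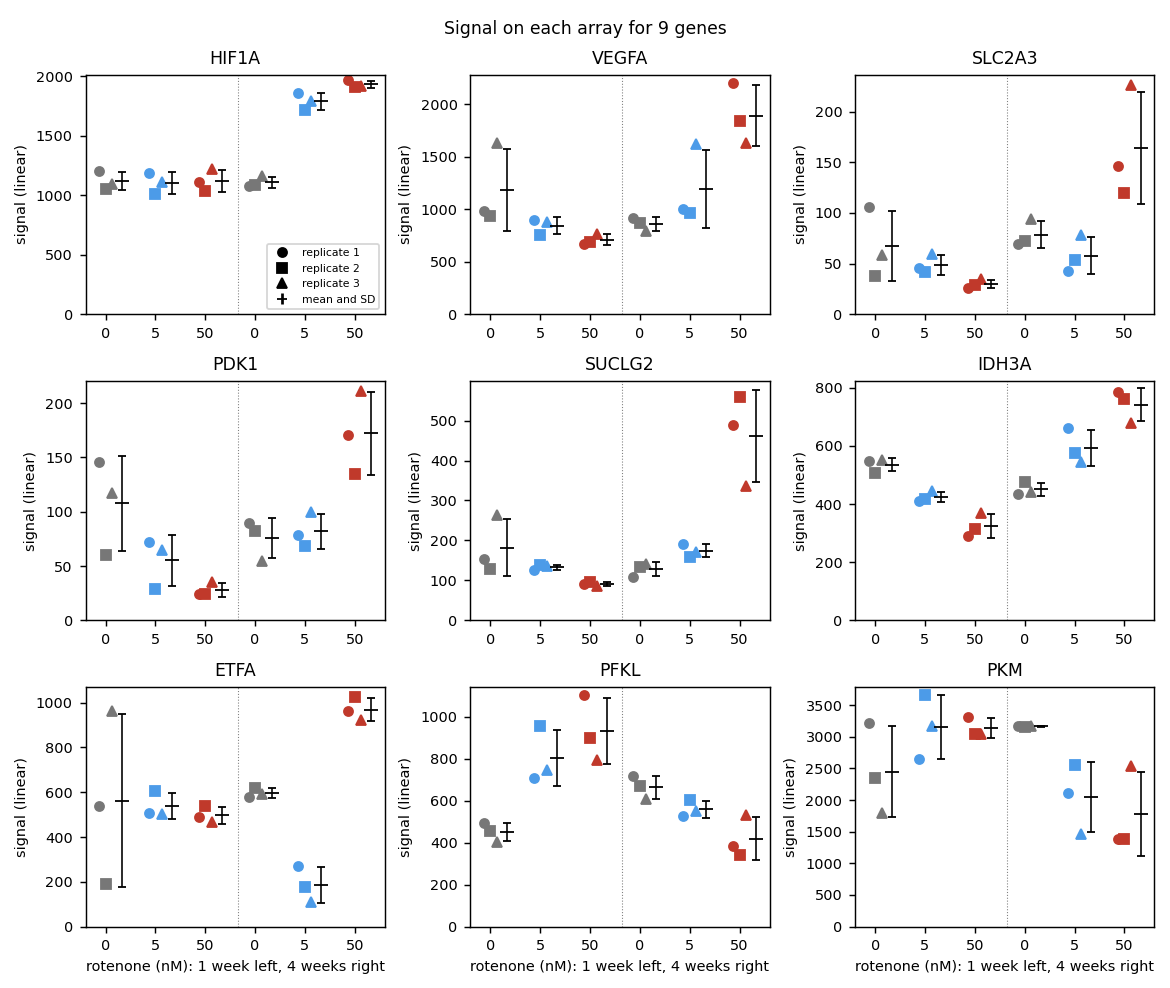
Signal on each array (linear, from 0) for 9 genes by rotenone dose, 1 week on the left and 4 weeks on the right of each panel, with the replicate given by the symbol and the bar showing mean ± SD of 3 arrays. HIF1A steps up on the 6 arrays of 4-week rotenone, PDK1, SLC2A3 and SUCLG2 have their lowest mean in 1w50 nM and their highest in 4w50 nM, and ETFA is lowest in 4w5 nM apart from 1w0 nM replicate 2.

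Glucose enters cells through the transporters SLC2A1 and SLC2A3 and is held there as glucose 6-phosphate by the hexokinases. SLC2A3 had signals of 146, 120 and 227 in 4w50 nM cells, against 69.0, 72.4 and 93.6 in 4w0 nM cells, and rose 2.04-fold (log2 1.03 ± 0.31, SE, adjusted p = 0.0141). The call was lost without 4w0 nM replicate 1 or 4w50 nM replicate 3 (adjusted p = 0.0529 and 0.0786 as the lowest and highest). In 1w50 nM cells SLC2A3 was at 26.2, 29.1 and 34.4, against 106, 37.9 and 58.8 in 1w0 nM cells, a 2.08-fold fall (log2 -1.06 ± 0.31, adjusted p = 0.0244) that was lost without 1w0 nM replicate 1 or 1w50 nM replicate 1 or 2 (0.0692 to 0.138). With the 4w0 nM arrays as vehicle that fall was -1.39 (adjusted p = 0.0319). SLC2A1, the ubiquitous transporter, was not called at any dose or week, and its signals in 4w50 nM cells were 562, 580 and 1136, against 638, 647 and 544 in 4w0 nM cells.

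Hexokinase 2, the inducible form, rose by 0.54 on the log2 scale in 4w50 nM cells (SE 0.15, adjusted p = 0.00781) and fell by 0.45 in 1w50 nM cells (adjusted p = 0.0433), the fall being lost without any of 5 of the 6 arrays (adjusted p up to 0.200). Another HK2 probe set differed by 0.44 and 0.02 and did not pass. Hexokinase 1, the constitutive form, read here from a dim probe set, fell with 5 nM at 4 weeks. HK1 signals were 43.6, 45.1 and 51.8 in 4w5 nM cells, against 90.8, 79.6 and 75.0 in 4w0 nM cells (log2 -0.80 ± 0.25, SE, adjusted p = 0.0205). They did not overlap, yet the call was lost without 4w0 nM replicate 1 or 4w5 nM replicate 1 or 2 (0.0539 to 0.0749). In 4w50 nM cells HK1 was 108, 65.8 and 129 and the log2 difference of 0.26 did not pass.

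Of the 7 upper glycolysis enzymes, 1 rose and 2 fell with 50 nM at 4 weeks, where 23.5% and 17.7% of all genes did. With 5 nM at 4 weeks 2 fell, where 14.3% of all genes did. Phosphofructokinase, which commits sugar to glycolysis, has a liver (PFKL), a muscle (PFKM) and a platelet (PFKP) form. PFKL fell in 4w50 nM cells, with signals of 383, 339 and 533, against 717, 669 and 607 in 4w0 nM cells (log2 -0.69 ± 0.17, SE, adjusted p = 0.00338). PFKM rose there, with 2865, 2649 and 1854, against 1607, 1535 and 1475 (log2 0.65 ± 0.16, adjusted p = 0.00413). Both calls held without any single array. PFKP differed by -0.27 and did not pass (adjusted p = 0.0802). At 1 week PFKL was higher with rotenone, at 707, 958 and 748 with 5 nM, against 493, 455 and 404 with vehicle (log2 0.83 ± 0.17, adjusted p = 0.00729), and at 1103, 898 and 793 with 50 nM (log2 1.04 ± 0.17, adjusted p = 0.000699). The 5 nM call was lost without 1w5 nM replicate 2 (adjusted p = 0.0554), and with the 4w0 nM arrays as vehicle PFKL differed by 0.27 and 0.48 and neither passed.

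GPI, which turns glucose 6-phosphate into fructose 6-phosphate, fell with 5 nM at 4 weeks. Its signals were 1251, 1076 and 873 in 4w5 nM cells, against 2058, 1853 and 1862 in 4w0 nM cells, a 1.82-fold fall (log2 -0.86 ± 0.16, SE, adjusted p = 0.000603), and 1945, 1639 and 1877 in 4w50 nM cells. The doses differed by 0.78 ± 0.16 on the log2 scale (50 nM minus 5 nM, SE, adjusted p = 0.00290). Of the aldolases, which split fructose bisphosphate, ALDOC fell by 0.44 with 5 nM (adjusted p = 0.0124) and ALDOA by 0.47 with 50 nM (adjusted p = 0.0138) at 4 weeks. The ALDOC call was lost without 4w5 nM replicate 1, and the ALDOA call without 4w0 nM replicate 1 or 4w50 nM replicate 1 or 2 (adjusted p up to 0.0777).

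Of the 8 enzymes of lower glycolysis PKM, PGAM1 and LDHB were called in some comparison with vehicle, and GAPDH, PGK1, ENO1, ENO2 and LDHA in none. The log2 differences of these 5 at 4 weeks lay between -0.19 and 0.02 with 5 nM and between -0.27 and -0.12 with 50 nM. Other probe sets of PGK1 passed at 4 weeks in opposite directions, at -0.60, -0.29 and 0.67 with 5 nM and at -0.49 and 0.83 with 50 nM, and 1 of GAPDH passed with 50 nM (-0.24), so that no direction is given for PGK1. PKM, the pyruvate kinase of the last step, fell with both doses at 4 weeks. Its signals were 3163, 3163 and 3174 in 4w0 nM, 2107, 2559 and 1460 in 4w5 nM and 1390, 1391 and 2544 in 4w50 nM cells. The fall was 0.90 on the log2 scale with 50 nM (SE 0.23, adjusted p = 0.00488), which held without any single array, and 0.67 with 5 nM (adjusted p = 0.0327), which was lost without any of 5 of the 6 arrays (0.0554 to 0.161). PGAM1 fell by 0.40 (adjusted p = 0.0170) with 50 nM although its replicate 3, at 2300, overlapped the vehicle, and the call was lost without 4w0 nM replicate 1 or 4w50 nM replicate 1 or 2 (adjusted p up to 0.0996). LDHB rose by 0.16, lost without any of 5 of 6 arrays (adjusted p up to 0.144).

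Replicate 3 of 4w50 nM held more of the glycolysis transcripts than replicates 1 and 2. Of the 19 genes of glucose uptake and glycolysis it was the highest of the 3 arrays in 15, or 78.9%, whereas over all 9162 genes it was the highest in 32.9% and over the 18 genes of pyruvate entry and the TCA cycle in 33.3%. The median log2 difference of replicate 3 from the mean of the others was 0.52 for the 19 genes, -0.09 for the 18 and -0.04 for all genes. It was 2.41 for BHLHE40, 2.36 for ADM, 0.99 for SLC2A1, 0.87 for PKM and 0.69 for TPI1, and -0.64 for SUCLG2 and -0.57 for PFKM. Replicate 1 of 1w0 nM was likewise the highest of its group for SLC2A1, SLC2A3 and BHLHE40, with SLC2A1 at 806, against 444 and 597 on replicates 2 and 3, SLC2A3 at 106, against 37.9 and 58.8, and BHLHE40 at 94.1, against 11.7 and 6.69. These genes were noticed after their values were seen, and no test was made between single arrays. Without 4w50 nM replicate 3, 10 genes of the set rose and 16 fell at 4 weeks with 50 nM, against 10 and 9 with it, while over all genes 23.1% rose and 16.6% fell without it, against 23.5% and 17.7% with it.

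**Figure D4:**
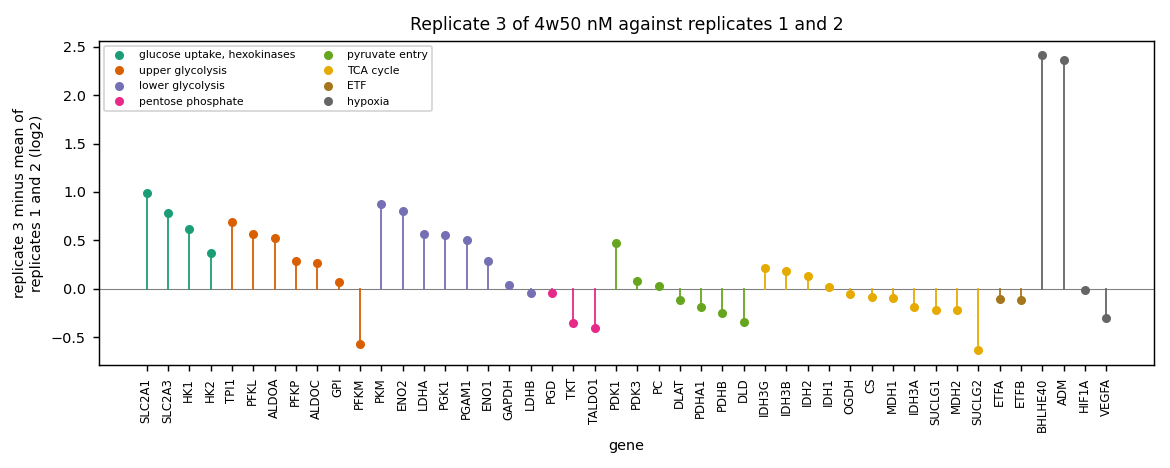
Log2 difference of 4w50 nM replicate 3 from the mean of replicates 1 and 2 for each of 46 genes, coloured and ordered by role. BHLHE40 (2.41) and ADM (2.36) lie highest, 15 of the 19 glucose uptake and glycolysis genes have replicate 3 as the highest array, and SUCLG2 (-0.64) lies lowest.

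The pentose phosphate pathway, which leaves glycolysis to make NADPH and ribose, was lower in part. TKT, transketolase, had 1538, 1410 and 1551 in 4w5 nM cells, against 2744, 2216 and 1960 in 4w0 nM cells (log2 -0.61 ± 0.17, SE, adjusted p = 0.00954, lost without 4w0 nM replicate 1 at 0.0603), and 3079, 2849 and 2312 in 4w50 nM cells, which did not pass against vehicle. PGD, the second NADPH-forming dehydrogenase, fell by 0.40 with 5 nM and 0.45 with 50 nM at 4 weeks, with calls lost on leaving out 4 arrays for 5 nM (adjusted p up to 0.228) and, for 50 nM, 4w0 nM replicate 3 or 4w50 nM replicate 2 (up to 0.0652). TALDO1, transaldolase, fell by 0.50 in 4w50 nM cells and rose by 0.49 in 1w50 nM cells, and both calls held without any single array, though with the 4w0 nM arrays as vehicle the 1-week difference of 0.24 did not pass.

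Pyruvate dehydrogenase is built of E1 (PDHA1, PDHB), E2 (DLAT) and E3 (DLD), and its parts were called in both directions. With 5 nM at 4 weeks PDHA1 fell by 0.56 (adjusted p = 0.00349) and PDHB by 0.51 (adjusted p = 0.0341), while DLAT and DLD rose. DLAT had signals of 483, 439 and 387 in 4w5 nM cells, against 243, 294 and 329 in 4w0 nM cells (log2 0.60 ± 0.21, SE, adjusted p = 0.0319). Other probe sets of PDHA1 and PDHB differed by 0.34 and 0.09 there, opposite in sign to the ones used, and in 4w50 nM cells the other one of PDHB rose by 0.92, where the one used differed by 0.34 and did not pass. DLD, which also serves the 2-oxoglutarate dehydrogenase, had 2285, 2236 and 1780 in 4w50 nM cells, against 1449, 1427 and 1258 in 4w0 nM cells (log2 0.60 ± 0.12, adjusted p = 0.000679), a call that held without any single array. In 4w5 nM cells it rose by 0.32 (adjusted p = 0.0459), lost on leaving out any of the 6 arrays (up to 0.173). The 5 nM calls of PDHB and DLAT were each lost on leaving out 4 of 6 arrays (up to 0.142 and 0.133), and that of PDHA1 held.

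At 1 week with 50 nM, 4 of the 7 genes of pyruvate entry fell and none rose, where 11.3% of all genes fell and 8.75% rose. The 4 were PDK1, DLAT, DLD and PC, the pyruvate carboxylase that feeds oxaloacetate to the cycle. DLAT was at 125, 142 and 214 in 1w50 nM cells, against 305, 352 and 197 in 1w0 nM cells, so that the groups overlapped through 1w0 nM replicate 3 (log2 -0.82 ± 0.21, SE, adjusted p = 0.00992). The calls of DLAT and DLD were lost without 1w50 nM replicate 1 (0.0668 and 0.0513), and that of PC on leaving out any of 5 of 6 arrays (up to 0.155). With the 4w0 nM arrays as vehicle PDK1 and DLAT (log2 -0.87, adjusted p = 0.0368) still fell, and DLD and PC did not pass.

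In the TCA cycle itself SUCLG2 had the largest rise of the 46 genes in any comparison with vehicle. Its signals were 488, 560 and 336 in 4w50 nM cells, against 108, 133 and 142 in 4w0 nM cells, a 3.56-fold rise (log2 1.83 ± 0.22, SE, adjusted p = 9.05e-06). In 4w5 nM cells they were 191, 159 and 171, above each vehicle array, but the log2 difference of 0.45 did not pass (adjusted p = 0.117). In 1w50 nM cells they were 91.5, 95.8 and 85.9, against 154, 130 and 263 in 1w0 nM cells, a fall of 0.93 ± 0.22 (adjusted p = 0.00649). The 50 nM calls held without any single array, but with the 4w0 nM arrays as vehicle the 1-week difference was -0.48 and did not pass (adjusted p = 0.249), and another SUCLG2 probe set differed by -0.58 at 1 week and did not pass. SUCLG1, the alpha subunit that SUCLG2 pairs with, was never called, with log2 differences of 0.01 and 0.19 at 4 weeks.

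Isocitrate dehydrogenase has NADP-dependent forms in the cytosol (IDH1) and mitochondria (IDH2) and an NAD-dependent mitochondrial form made of IDH3A, IDH3B and IDH3G. IDH3A, the catalytic subunit, rose in 4w50 nM cells, with 785, 763 and 678, against 434, 476 and 441 in 4w0 nM cells (log2 0.72 ± 0.12, SE, adjusted p = 0.000158). With 5 nM at 4 weeks it had 662, 574 and 544 (log2 0.39, adjusted p = 0.0168, lost on leaving out 3 arrays, up to 0.0882, and at 0.0876 after quantile normalization). At 1 week with 50 nM it had 292, 314 and 370, against 548, 509 and 552 with vehicle (log2 -0.73 ± 0.12, adjusted p = 0.000737), a fall that held without any single array and with the 4w0 nM arrays as vehicle (log2 -0.48, adjusted p = 0.0442). Another probe set of IDH3A did not pass, at 0.07 with 5 nM at 4 weeks and -0.06 with 50 nM at 1 week. The regulatory subunits IDH3B and IDH3G were not called by the probe sets used, with log2 differences of -0.05 and -0.32 in 4w50 nM cells, but another probe set of each passed there, at -0.45 (adjusted p = 0.0142) and -0.44 (adjusted p = 0.0253). That of IDH3B also passed with 5 nM at 4 weeks (-0.57), and that of IDH3G with 5 nM (0.55) and 50 nM (0.55) at 1 week. IDH2 fell by 0.51 in 4w50 nM cells (adjusted p = 0.00193), a call that held without any single array. It rose by 0.39 with 5 nM at 1 week, a call lost on leaving out any of 5 of 6 arrays (up to 0.201).

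IDH1 had 1606, 1798 and 1343 in 4w5 nM cells, against 1082, 1104 and 1025 in 4w0 nM cells (log2 0.55 ± 0.15, SE, adjusted p = 0.00795). At 1 week it was lower with rotenone, at 1047, 833 and 890 with 5 nM, against 1508, 1496 and 1241 with vehicle (log2 -0.62, adjusted p = 0.0174), and at 755, 759 and 1119 with 50 nM (log2 -0.71, adjusted p = 0.00347). The 5 nM fall was lost on leaving out 3 of 6 arrays (up to 0.0992), and both falls were lost with the 4w0 nM arrays as vehicle (log2 -0.22 and -0.31).

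OGDH, the E1 of 2-oxoglutarate dehydrogenase, fell with both doses at 4 weeks. Its signals were 696, 641 and 576 in 4w0 nM, 439, 463 and 268 in 4w5 nM and 466, 467 and 447 in 4w50 nM cells. The fall was 0.75 with 5 nM (SE 0.17, adjusted p = 0.00349), which held without any single array, and 0.47 with 50 nM (adjusted p = 0.0399), lost on leaving out any of 5 of 6 arrays (up to 0.130). At 1 week with 5 nM OGDH was at 652, 835 and 656, against 525, 422 and 434 with vehicle (log2 0.63, adjusted p = 0.0383), lost on leaving out any of 5 of 6 arrays (up to 0.188). CS, the citrate synthase that opens the cycle, fell by 0.34 with 5 nM at 4 weeks (adjusted p = 0.0332), lost on leaving out 4 of 6 arrays (up to 0.107). The malate dehydrogenases MDH1 and MDH2 were never called, with log2 differences between -0.12 and 0.19 in the 4 comparisons with vehicle, though another MDH2 probe set rose by 0.63 with 5 nM at 4 weeks (adjusted p = 0.0202).

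The electron transfer flavoprotein passes electrons from fatty acid and amino acid oxidation to the respiratory chain past complex I and has the subunits ETFA and ETFB. ETFB was lower with both doses at 4 weeks, at 391, 390 and 360 in 4w0 nM, 222, 222 and 276 in 4w5 nM and 231, 250 and 222 in 4w50 nM cells. The fall was 0.67 with 5 nM (SE 0.13, adjusted p = 0.000983) and 0.70 with 50 nM (adjusted p = 0.000447), and both calls held without any single array. ETFA, with the values given above and 577, 620 and 593 in 4w0 nM cells, fell 3.41-fold with 5 nM (log2 -1.77 ± 0.39, adjusted p = 0.00215), which held without any single array. With 50 nM each array was above each vehicle array, and the log2 difference of 0.70 did not pass (adjusted p = 0.158). On the 6 rotenone arrays of 1 week ETFA lay between 467 and 605.

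The doses differed from each other at 4 weeks in 1 direction for this set. Of the 46 genes 11 were higher with 50 nM than with 5 nM at 4 weeks, or 23.9%, where 10.1% of all genes were, and 0 were lower, where 7.35% of all were, and 23 of the 46 had an unadjusted p below 0.05 by limma, where 30.9% of all genes had. The 11 were ETFA (log2 2.47 ± 0.39, SE, adjusted p = 0.000569), SLC2A3 (1.49), SUCLG2 (1.38), PDK1 and HK1 (1.06 each), TKT (0.86), PDHB (0.85), GPI (0.78), VEGFA (0.69), PDHA1 (0.47) and CS (0.45). Their signals did not share a direction against vehicle. HK1, GPI, TKT, PDHA1, PDHB, CS and ETFA were below the vehicle mean in 4w5 nM cells, while SLC2A3, PDK1, SUCLG2 and VEGFA were above it in 4w50 nM cells. Leaving out arrays moved the count between 7 and 18, and without 4w50 nM replicate 3 there were 14 higher and 4 lower. The call of PDK1 was lost on leaving out 5 of the 6 arrays (up to 0.141), VEGFA on 4 (up to 0.127), PDHA1 on 3 and CS on 2 (up to 0.0791 and 0.0645). With the methods' unpaired test and Benjamini-Hochberg adjustment 0 of the 46 were called. At 1 week the same comparison called 0 of the 46, where 0.0% of all genes were higher and 0.0109% lower, and 6 had an unadjusted p below 0.05 by limma, where 1194 of all genes had, with 0 by the methods' unpaired test after adjustment.

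Several of these differences lay among neighbours on the chromosome that moved the same way. The neighbours are the 20 genes tested on each side, in RefSeq's order. For TKT on chromosome 3, whose log2 difference between the doses was 0.86, the median of the 40 neighbours was 0.53, with 22 higher and 1 lower. For PDHB on the same chromosome, at 0.85, it was 0.52, with 20 higher and 2 lower. For SUCLG2, also there, at 1.38, it was 0.30, with 16 higher and 3 lower. The neighbours of ETFA on chromosome 15, of SLC2A3 on chromosome 12, of HK1 on chromosome 10 and of GPI on chromosome 19 had medians of -0.00, -0.04, 0.07 and 0.00. Against vehicle in 4w50 nM cells the neighbours of PDK1 on chromosome 2 had a median of 0.51, with 26 of 40 higher and 3 lower, beside 1.20 for PDK1, and those of HIF1A on chromosome 14 had 0.39, with 18 higher and 2 lower, beside 0.80. Those of SUCLG2 had 0.45, with 17 higher and 4 lower, and those of DLD on chromosome 7 had 0.44, with 18 higher and 5 lower. Those of VEGFA on chromosome 6 had 0.07 and those of PKM on chromosome 15 had 0.22, beside 1.13 and -0.90. Between the doses, however, the neighbours of VEGFA had 0.22, with 13 higher and 0 lower. There those of PDK1 had 0.195, with 9 higher and 2 lower, and those of PDHA1 and CS had 0.02 and 0.08. The part of the neighbourhood in each gene's difference was not tested.

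**Figure D5:**
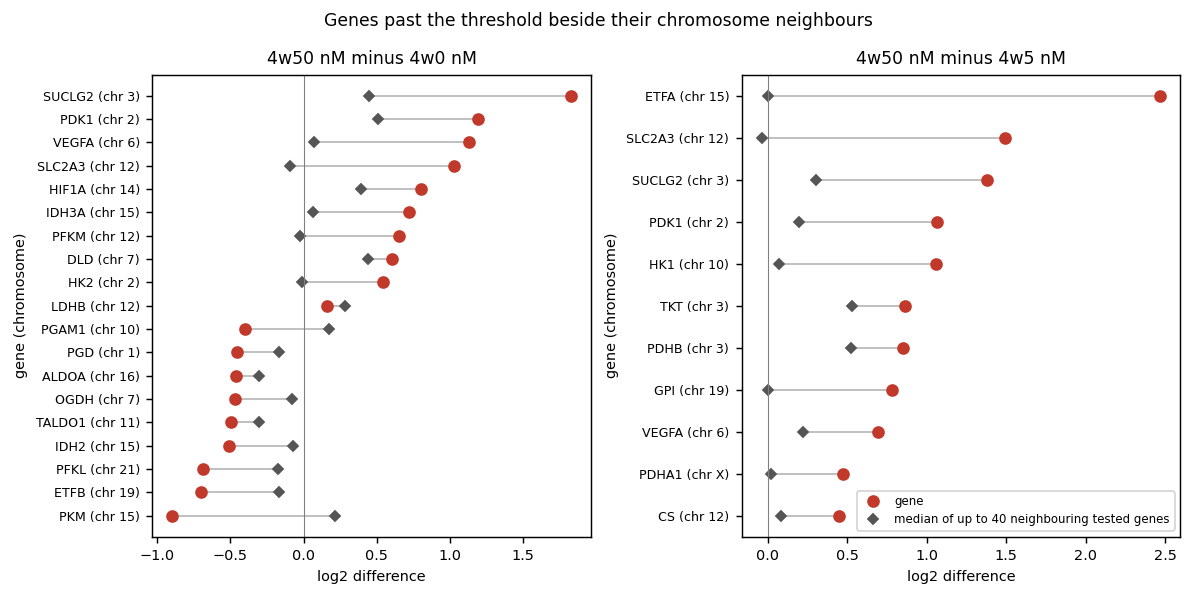
Log2 difference of each gene past the threshold (red) and the median over its up to 40 neighbouring tested genes (grey), with the chromosome in brackets, for 4w50 nM against 4w0 nM (left) and against 4w5 nM (right). TKT and PDHB on chromosome 3 have neighbour medians of 0.53 and 0.52 between the doses, while those of ETFA and SLC2A3 lie at -0.00 and -0.04.

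The effect of each dose was compared between weeks through the interaction term. For 50 nM, 12 of the 46 genes had a higher effect at 4 weeks than at 1 week, where 24.3% of all genes did, and 13 a lower one, where 20.5% of all did. For 5 nM, 7 were higher, where 15.2% of all were, and 15 lower, where 17.5% of all were. All 9 genes called with 50 nM in both weeks and both genes called with 5 nM in both weeks changed in opposite directions. So did, of the other genes of these pathways listed below, all 10 called in both weeks with 50 nM and the 1 with 5 nM. The same count over all genes is not given here. With 50 nM, HK2, SLC2A3, PDK1, DLD, IDH3A, SUCLG2 and VEGFA fell at 1 week and rose at 4 weeks, and PFKL and TALDO1 did the reverse. With 5 nM, IDH1 fell and then rose, and OGDH did the reverse. These reversals rest in part on the 1w0 nM arrays. With the 4w0 nM arrays as the 1-week vehicle, SLC2A3, PDK1 and IDH3A still fell at 1 week with 50 nM. HK2, DLD, SUCLG2, VEGFA, PFKL and TALDO1 with 50 nM, and IDH1 and OGDH with 5 nM, did not pass there. Across the 46 genes the log2 difference of 50 nM at 1 week and that at 4 weeks had r = -0.79, and across all 9162 genes r = -0.55, with no array shared between them. The value for the 46 genes was -0.60, -0.46 and -0.87 with 1w0 nM replicate 1, 2 or 3 as the vehicle, and for 5 nM it was -0.16, -0.84 and -0.31. It thus differed with the vehicle array used, by most for 5 nM. With the 4w0 nM arrays as vehicle at both weeks, where the term becomes 4 weeks against 1 week of the same dose, 18 genes were higher and 9 lower for 50 nM, where 30.5% and 20.7% of all genes were, and 6 higher and 14 lower for 5 nM, where 20.4% and 17.3% of all were. Between the vehicle groups, 4w0 nM against 1w0 nM, 0 of the 46 were called by limma, where 2.88% of all genes were higher and 0.72% lower, 12 had an unadjusted p below 0.05, where 18.8% of all genes had, and the methods' unpaired test called 0 after adjustment.

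Other genes of the same pathways, a list of 92 chosen from textbook knowledge, could be measured for 65. Of these 18 rose and 6 fell with 50 nM at 4 weeks, where 23.5% and 17.7% of all genes did. With 5 nM at 4 weeks 13 of the list rose and 9 fell, where 18.6% and 14.3% of all genes did. At 1 week 1 rose and 12 fell with 50 nM, where 8.75% and 11.3% of all genes did. With 5 nM at 1 week 0 rose and 2 fell, where 4.98% and 1.62% of all genes did. At least 2-fold rises in 4w50 nM cells were seen for EPAS1 (log2 1.75), which codes for HIF-2 alpha, STC2 (1.64), a secreted glycoprotein, P4HA2 (1.40), a collagen prolyl hydroxylase, SUCLA2 (1.31), the ATP-forming beta subunit of succinyl-CoA ligase, PCK2 (1.17), the mitochondrial PEP carboxykinase, MXI1 (1.15), a MYC antagonist, GPD1L (1.12), a glycerol phosphate dehydrogenase-like protein, PDHX (1.11), which anchors E3 in pyruvate dehydrogenase, RPE (1.08), of the pentose phosphate pathway, and ERO1A (1.05), an oxidase of the endoplasmic reticulum. ANGPTL4, a lipase inhibitor that hypoxia induces, fell by 1.5. With 5 nM at 4 weeks STC2 (1.75) and SUCLA2 (1.11) rose, and EPAS1 (-1.48), PGM1 (-1.43), phosphoglucomutase, and ANGPTL4 (-1.02) fell. With 50 nM at 1 week RPE (-1.20), BNIP3 (-1.09), a mitophagy receptor, and STC2 (-1.05) fell, and with 5 nM PCK2 (-1.0), all measured against the 1w0 nM arrays. SUCLA2 had 387, 379 and 290 in 4w0 nM, 826, 764 and 675 in 4w5 nM and 961, 967 and 702 in 4w50 nM cells, so that both beta subunits of succinyl-CoA ligase were higher in 4w50 nM cells and the alpha subunit SUCLG1 was not called. EPAS1 was at 62.0, 26.8 and 64.7 in 4w5 nM cells and 612, 494 and 294 in 4w50 nM cells, and at 163, 79.5 and 344 on 1w0 nM replicates 1, 2 and 3, the same order as ETFA.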

How the data were processed

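RNA of 18 samples of SK-N-MC cells was hybridized to Affymetrix HG-U133A arrays. The authors used dChip to normalize them and to fit a model-based expression index, and deposited it as a linear intensity per probe set. The normalization method and the dChip version are not given in the sources used here. All columns matched a sample.

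Intensities below 16 were set to 16 and log2 was taken. Of 22283 probe sets, 68 were controls and 19065 had a single gene in the platform annotation. A probe set needed 50 on 3 or more arrays, and for each gene the one with the highest average log2 value was read. The fit used limma 3.58.1 in R 4.3.3 with 1 mean for each of the 6 groups, an intensity trend, and 12 residual and 5.71 prior degrees of freedom. Benjamini-Hochberg adjustment ran across 9162 genes within a comparison. Values of other probe sets came from a separate fit to the 13705 single-gene probe sets kept, adjusted across these. The number of arrays limits the precision.

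Genes past the threshold and changed at least 1.5-fold against vehicle are given on every array, and genes of the wider list changed at least 2-fold are named. The genes, lists and tests were chosen with earlier results of these data known. The study's methods use dChip fold changes, an unpaired test and SAM, and limma takes their place because groups hold 3 arrays. Other floors, scalings, filters, probe set rules, fits, a replicate block, the methods' unpaired test and left-out arrays were the alternatives. Promoter windows are RefSeq's (GRCh38.p14).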

Additional observations from a re-analysis of the deposited data

Results flagged for a closer look

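The differences named here were picked because the effect of a dose differed between the weeks by limma's interaction term (adjusted p below 0.05). That was the case for 22 genes of the set with 5 nM, where 32.7% of all genes tested passed. With 50 nM it was the case for 25 genes of the set, where 44.8% of all genes tested passed. The differences of the set that were at least 2-fold are given as the log2 effect at 4 weeks minus that at 1 week. With 5 nM, IDH1 had 1.17 and ETFA -1.99, OGDH -1.38, GPI -1.25, HK1 -1.18, ETFB -1.09, PFKL -1.08 and PKM -1.07. With 50 nM, PDK1 had 3.05, SUCLG2 2.76, SLC2A3 2.08, VEGFA 1.82, IDH3A 1.45, DLD 1.11 and DLAT 1.09, and ADM had -1.98, PFKL -1.73 and PKM -1.29. All of them rest on the 1w0 nM arrays, of which replicates 2 and 3 differed as 4w5 nM and 4w50 nM did. With 1w0 nM replicate 1 as the only 1-week vehicle, chosen after seeing the data, the counts were 15 and 19, of which 13 and 16 were shared with the fit to all arrays, and HK1 (-0.88), PKM with 5 nM (-0.63), PKM with 50 nM (-0.86) and ADM (-1.04) did not pass. Without 1w5 nM replicate 2 the 5 nM calls of HK1 and PKM were lost (adjusted p = 0.0527 and 0.0525). The call of ADM was also lost on leaving out 9 of 12 arrays, 1w0 nM replicate 3 among them, where ADM had 18.9. No test for a single outlying array was made in groups of 3.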

How the results depend on the processing

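No call changed direction under any alternative. Of 110 calls of single genes over the 9 comparisons, the number that no longer passed was 0 when the floor was 32, when a started log was used or when the filter was 100, 5 with quantile normalization, 13 with median scaling, 21 with no filter, 11 with the mean of probe sets, 20 with only the compared groups in the fit, 5 without the intensity trend and 11 with array weights. Of the 63 calls, not the same ones for each, to which the next settings apply, 44 no longer passed with the methods' unpaired test after adjustment, 22 with the 4w0 nM arrays as the 1-week vehicle and 24 with 1w0 nM replicate 1 as the only one. Counts of genes called of the 46 that moved by over 1.5 times were as follows, and the cause was not tested. For 5 nM at 1 week, the count of 4 became 0 with only the compared groups, 1 with array weights (whose estimation stopped before convergence), 0 with the methods' unpaired test after adjustment, 0 with the 4w0 nM arrays as vehicle and 0 with 1w0 nM replicate 1 as the only vehicle, the last 2 chosen after seeing the data, and leaving out each array gave 0 to 6, with 0 without 1w5 nM replicate 2, 1 without its replicate 3 and 2 without its replicate 1 or 1w0 nM replicate 1. For 50 nM at 1 week, 12 became 3, 7, 0 and, with the 4w0 nM arrays, 4, and leaving out each array gave 6 (1w50 nM replicate 1) to 12. For 5 nM at 4 weeks, 17 became 11 with no filter, 31 with array weights and 11 with the methods' test, and leaving out each array gave 9 to 14, with 11 or fewer without any 4w0 nM array or 4w5 nM replicate 1. For 50 nM at 4 weeks, 19 became 33 with array weights. Between the doses at 4 weeks, 11 became 30 with array weights and 0 with the methods' test, and leaving out each array gave 7 (4w50 nM replicate 1) to 18 (its replicate 3). Between the doses at 1 week, 0 became 1 with only the compared groups and 12 with array weights. Between the vehicle groups, 0 became 1 with array weights, and leaving out each array gave 0 to 1, with 1 without 1w0 nM replicate 1 or 3. For the 5 nM difference between weeks, leaving out each array gave 14 (1w5 nM replicate 2) to 23, beside 22. The split of higher to lower for 5 nM at 1 week was 3 to 1, against 2 to 2 with quantile normalization and 1 to 2 with median scaling. For 5 nM at 4 weeks it was 5 to 12, against 3 to 13 with quantile normalization, and for its difference between weeks 7 to 15, against 9 to 9 with median scaling.

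Over all groups, arrays with the same replicate number did not deviate together on average (mean r = -0.02 over 45 pairs, 11 of them over 0.1). For different numbers the mean r was 0.01 over 90 pairs, 26 of them over 0.1. Between 1w5 nM and 1w50 nM the same-number pairs had r of 0.04, 0.22 and 0.32, and the other pairs -0.30 to 0.14. The main fit did not pair the samples by number, and these values do not exclude pairing within some groups. With a replicate block the counts were 3, 11, 15 and 19 for 5 and 50 nM at 1 week and 5 and 50 nM at 4 weeks, 11 between the doses at 4 weeks, and 7 of the 110 calls no longer passed.

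Genes near the floor, such as BHLHE40, have fold changes that are bounds at most. The 46 genes had 31 other probe sets that passed the filter. Counted once for each comparison in which their gene was called, they gave 77 differences, of which 73 had the sign of the probe set used. Of the 16 genes never called against vehicle 7 had another probe set, and for 5 of these at least 1 passed.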

Other observations

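The 16 genes never called against vehicle at either dose or week by the probe set used were PFKP, TPI1, GAPDH, PGK1, ENO1, ENO2, LDHA, SLC2A1, PDK3, IDH3B, IDH3G, SUCLG1, MDH1, MDH2, ADM and BHLHE40. CXCR4, a chemokine receptor that hypoxia induces, was the only gene of the wider list that differed between the vehicle groups, with signals of 120, 128 and 128 in 4w0 nM cells, against 92.2, 47.7 and 83.1 in 1w0 nM cells (log2 0.81 ± 0.20, SE, adjusted p = 0.0343 by limma). BNIP3 had 482, 460 and 1485 in 4w50 nM cells, against 723, 884 and 853 in 4w0 nM cells, and 1316, 814 and 494 in 1w0 nM cells, so that 4w50 nM replicate 3 and 1w0 nM replicate 1 were the highest arrays, as for BHLHE40 and SLC2A1. LOX, a collagen cross-linking enzyme that hypoxia induces, was lower with 50 nM than with 5 nM at 4 weeks (log2 -1.61 ± 0.48, adjusted p = 0.0266), and on the 1w0 nM arrays it had 305, 753 and 101 on replicates 1, 2 and 3. PGM1 had 270, 96 and 356 on these arrays, beside 146, 112 and 99.1 in 4w5 nM and 442, 415 and 482 in 4w50 nM cells.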
